A study of Mus musculus with 6 samples.

Results

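Insulin-like growth factor 1, its receptor and the binding proteins that carry IGFs outside the cell were followed through endothelium-enriched cells of 3 mouse tissues. The 9 genes were taken by name (Igf1, Igf1r and Igfbp1 to Igfbp7) out of 18193 genes with a probe set of their own. They are read by 25 of the 34945 probe sets that carry a single gene symbol. Where a gene has several, its brightest probe set, by the mean over all arrays, stands for it and the others are compared with it. The cells came from embryos of mixed background at embryonic day 9.5, and the labels name no treatment beyond the sort. They were isolated fresh from heart tube, caudal-half tissue (called caudal tissue from here on) or yolk sac and sorted as CD31+/CD41-/CD45-, so all 6 samples share that gate. Each tissue has 2 biological replicates and 1 array per replicate. The labels do not say how many embryos were pooled for a sample.

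IGF1 acts through IGF1R, a receptor tyrosine kinase that passes its signal to IRS adaptors, PI3K and AKT, and to the MAPK cascade. The binding proteins IGFBP1 to IGFBP6 hold IGFs with high affinity and can limit or prolong their access to the receptor. IGFBP7 binds IGFs only weakly and is known as a protein of vessel walls. Some binding proteins are cut by secreted proteases such as pappalysin-1, which releases the growth factor, and the stanniocalcins inhibit that protease.

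Levels below are natural logs of the deposited RMA signal, given for both arrays of a tissue, and differences are in the same units. The natural log of the deposited signals spans 0.90 to 14.59, the usual span of RMA values in log2, so a unit probably stands for a factor of 2. No source used here gives the base. Should the signal be linear, each difference has to be multiplied by 1.44 to be in log2, and the tests do not change. Probe sets for bacterial RNAs read 1.33 to 4.03 and are used here to describe weak signals. Because probe sets differ in how they bind, levels are compared between tissues within a gene and not between genes.

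Some facts of the 6 arrays bear on every gene. Replicates correlated at r = 0.982 to 0.987 over the named probe sets, against 0.944 to 0.967 between tissues. The 12 endothelial markers averaged 9.19 and 9.37 on the heart tube arrays, 9.87 and 9.96 on the caudal arrays and 10.10 and 10.03 on the yolk sac arrays, and 0 of them fell among the bacterial probe sets. The 7 leukocyte and macrophage markers averaged 2.76 to 3.07 on the 6 arrays, with 6 of them among the bacterial probe sets in each tissue. Itga2b, which encodes the gate marker CD41, read 6.42 to 6.93 on the heart tube and caudal arrays and 8.37 and 8.18 on the yolk sac arrays, and was called higher in the yolk sac (limma adjusted p = 0.00687 and 0.00522). The 5 megakaryocyte and platelet markers, Itga2b among them, averaged 4.33 to 4.82. The 9 erythroid markers averaged 6.55 and 6.23 on heart tube arrays, 6.93 and 6.44 on caudal arrays and 7.99 and 8.26 on yolk sac arrays. Against each other tissue 5 of 9 were higher in the yolk sac, though not the same 5. Of the others 1, Klf1, was lower in the yolk sac than in the heart tube. Markers of further cell types were also read. The 10 cardiomyocyte markers averaged 7.58 and 7.59 in heart tube cells, 5.18 and 5.31 in caudal cells and 4.84 and 4.64 in the yolk sac. The 10 visceral endoderm markers averaged 9.39 and 9.36 in the yolk sac against 4.42 on both heart tube arrays and 4.76 and 4.69 on the caudal arrays. In samples of sorted cells taken as a bulk, fewer cells of a type and less RNA per cell cannot be told apart.

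Tissues were separated mainly by the binding proteins Igfbp5, Igfbp7 and Igfbp3 and, less widely, by the ligand Igf1, while the receptor Igf1r passed no test. Against the caudal tissue, the heart tube had 4 of the 9 genes called at an adjusted p under 0.05 (limma, adjusted over all genes), beside 5.51% of all genes. They were Igfbp5, Igfbp7 and Igf1, higher (3 of 9, beside 2.86% of all genes), and Igfbp3, lower (1 of 9, beside 2.65%). Against the yolk sac the heart tube had 2 of 9 called, beside 11.8% of all genes: Igfbp5 was higher (1 of 9, beside 5.14%) and Igfbp3 lower (1 of 9, beside 6.67%). Between caudal tissue and yolk sac 3 of 9 were called, beside 9.08% of all genes. There Igfbp3 was higher in the caudal tissue (1 of 9, beside 4.22%), and Igfbp7 and Igf1 were lower (2 of 9, beside 4.86%). The median difference of the 9 genes was 0.07, -0.48 and -0.05 in the 3 comparisons, in the order given, beside -0.08, -0.06 and 0.02 over all genes. Each tissue's arrays enter 2 of the comparisons, so these are not independent. The 2 arrays of a tissue did not overlap with those of the other for 7, 8 and 4 of the 9 genes in the 3 comparisons, beside 51.3%, 56.3% and 51.6% of all genes. With 2 arrays a tissue, a lack of overlap is thus common, and it is given below only as a description.

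**Figure D1:**
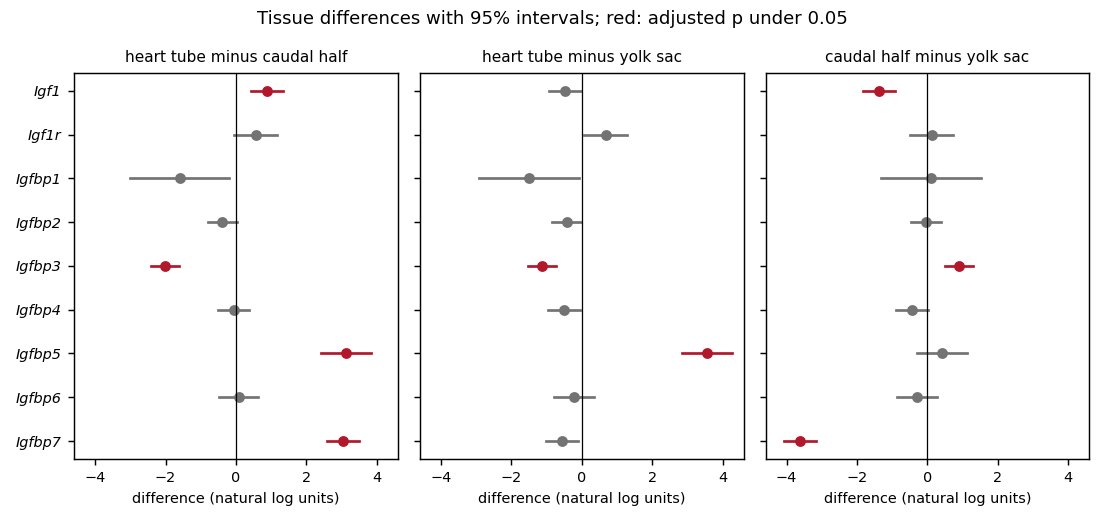
Difference between tissues for each of the 9 genes, in natural log units of the deposited RMA signal, with its 95% interval from limma (n = 2 arrays per tissue). Red points have an adjusted p under 0.05. Igfbp5 lies at 3.13 and 3.56 in the comparisons with the heart tube, and Igfbp7 at 3.05 and -3.62 in those with the caudal tissue.

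Igf1, the ligand of the receptor, was lowest in the caudal tissue. It read 10.81 and 10.95 on the yolk sac arrays, 10.36 and 10.45 on the heart tube arrays and 9.34 and 9.69 on the caudal arrays. The tissues did not overlap, in the order yolk sac, heart tube, caudal tissue. The caudal level was lower than that of the yolk sac by a difference of -1.37 ± 0.19 (SE; limma adjusted p = 0.00901), a factor of 2.58 if the units are log2 and of 3.92 if the signal is linear. The heart tube lay 0.89 ± 0.19 above the caudal tissue, just past the threshold (adjusted p = 0.0488). That call was lost in 10 of 14 alternative settings, whichever array was left out. These settings overlap, so such counts here and below are not counts of separate checks. The neighbours heart tube and yolk sac differed by -0.48 ± 0.19 (95% interval -0.93 to -0.02), which missed the threshold (adjusted p = 0.172). The call against the yolk sac was lost without the first caudal array (adjusted p = 0.0514).

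The other 3 probe sets of Igf1 showed the same order of caudal tissue below heart tube. They differed between heart tube and caudal tissue by 1.02 to 1.46, and all 3 were called in the test over every named probe set, where 4.15% were called. Between caudal tissue and yolk sac they differed by -1.57 to -1.23, and again all 3 were called, beside 6.92% of the probe sets. None of the 4 was called between heart tube and yolk sac, where 9.78% of the probe sets were. Markers of mesenchyme had the same order of tissues on average only, and single markers did not all share it. Twist1 was highest in the heart tube (mean 10.06), and Col1a1 was lowest there (7.64). The 10 markers averaged 7.99 and 7.75 in yolk sac, 7.47 and 7.44 in heart tube and 6.18 and 6.03 in the caudal tissue, with 1 to 2 of them among the bacterial probe sets in each. Against the caudal tissue, 6 were called higher and 0 lower for heart tube cells, and 6 higher and 2 lower for yolk sac cells. Of the 10 visceral endoderm markers, 9 were higher in the yolk sac than in either other tissue, and Hnf4a was called in no comparison. Rbp4, 1 of those 9, was also lower in the heart tube against the caudal tissue (-1.55, limma adjusted p = 0.0342). Its heart tube mean of 2.70 was among the bacterial probe sets. The part of these cells in the level of Igf1 was not tested.

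Igf1r, which encodes the receptor, passed no test. It read 9.33 and 9.06 in heart tube cells, 8.48 and 8.78 in caudal cells and 8.21 and 8.81 in the yolk sac. The heart tube arrays were above all others, and the arrays of the other tissues overlapped. The heart tube exceeded the yolk sac by 0.69 ± 0.25 (95% interval 0.08 to 1.30, limma adjusted p = 0.148) and the caudal tissue by 0.56 ± 0.25 (-0.05 to 1.18, adjusted p = 0.293). Between the last 2 tissues the difference was 0.12, with an interval of -0.49 to 0.73. The other 4 probe sets gave differences of 0.17 to 0.93 from the caudal tissue and of 0.32 to 0.89 from the yolk sac, and 0 of them was called. One of those 4 read below 4.03, among the bacterial probe sets, on all 6 arrays.

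**Figure D2:**
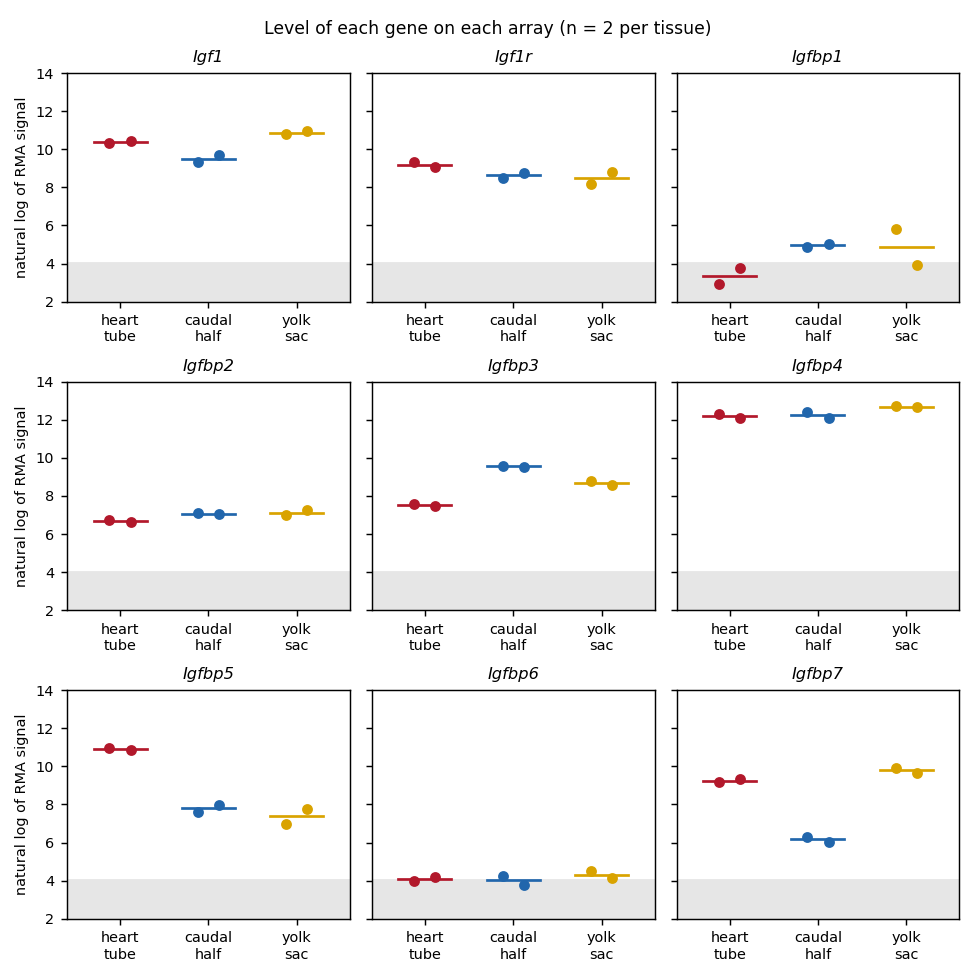
Level of each gene on each array (dots) and the mean of the 2 arrays of a tissue (lines), as natural log of the deposited RMA signal. The grey band marks values up to 4.03, the highest reading of the bacterial probe sets. Igfbp5 stands out in the heart tube at 10.98 and 10.89, and Igfbp7 is low in the caudal tissue at 6.32 and 6.06.

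Igfbp5, a binding protein that also attaches to extracellular matrix, was highest in the heart tube. It read 10.98 and 10.89 there, 7.61 and 7.99 in the caudal tissue and 6.96 and 7.79 in the yolk sac. The heart tube arrays lay far above the other 4, which overlapped. The difference was 3.13 ± 0.30 from the caudal tissue (limma adjusted p = 0.0028) and 3.56 ± 0.30 from the yolk sac (adjusted p = 0.000956), factors of 8.78 and 11.8 if the units are log2 and of 23.0 and 35.2 if the signal is linear. Only 0.55% and 0.682% of all genes differed by more in those comparisons. Both calls held in all 14 alternative settings, with adjusted p up to 0.0293. The second probe set read 9.88 and 9.95 in heart tube cells, 6.41 and 5.86 in caudal cells and 7.65 and 6.86 in the yolk sac. It was called in both comparisons as well (3.78 and 2.66). The order of the lower tissues was not settled. The brightest probe set placed the caudal tissue 0.43 above the yolk sac (interval -0.29 to 1.14) and the second placed it lower (-1.12), neither of them called.

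Markers of cardiomyocytes and mesenchyme moved with Igfbp5 in part. Of the 10 cardiomyocyte markers, 6 were higher in heart tube than in caudal tissue and 8 than in the yolk sac, and 0 were lower. In the caudal tissue and in the yolk sac, 2 of them lay among the bacterial probe sets. Of the 10 mesenchymal markers, 6 were higher in the heart tube when set against the caudal tissue, while against the yolk sac 3 were higher and 4 lower. The part of these cells in the level of Igfbp5 was not tested.

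Igfbp7, the weak IGF binder of vessel walls, was set apart by its low level in the caudal tissue. It read 6.32 and 6.06 there, 9.16 and 9.31 in heart tube and 9.93 and 9.67 in yolk sac, with no overlap. The caudal level differed from that of the yolk sac by -3.62 ± 0.19 (limma adjusted p = 0.000399), a factor of 12.3 in log2 units and of 37.2 if the signal is linear. Only 0.346% of all genes differed by more in that comparison. The heart tube exceeded the caudal tissue by 3.05 ± 0.19 (adjusted p = 0.000729) and was below the yolk sac by a difference of -0.57 ± 0.19 that missed the threshold (interval -1.02 to -0.11, adjusted p = 0.117). Both calls held in all 14 settings, with adjusted p up to 0.0104. The average of the mesenchymal markers given beside Igf1 had the same order of tissues as this brightest probe set, though single markers did not all share it. The part of these cells in the level of Igfbp7 was not tested.

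The probe sets of Igfbp7 did not agree on the sizes. One of the other 2 read 6.71 and 6.19 in heart tube cells, 6.09 and 6.24 in caudal cells and 6.80 and 6.77 in the yolk sac, and was called in no comparison. The other read 5.62 and 5.86, 4.41 and 4.15, and 4.71 and 4.63 in that order. It was called higher in heart tube than in caudal tissue (1.46) and also than in the yolk sac (1.07), the opposite direction to the brightest probe set. With the mean of all 3 probe sets the differences shrank to 1.60 for heart tube minus caudal tissue and -1.54 for caudal tissue minus yolk sac, both still called, and the difference of heart tube and yolk sac became 0.06. The low caudal level is thus shared in direction by all 3, and the order of heart tube and yolk sac is not. Between caudal tissue and yolk sac neither of the other 2 was called (-0.62 and -0.39). The large difference there rests on the brightest probe set, which also enters the mean of all 3.

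**Figure D3:**
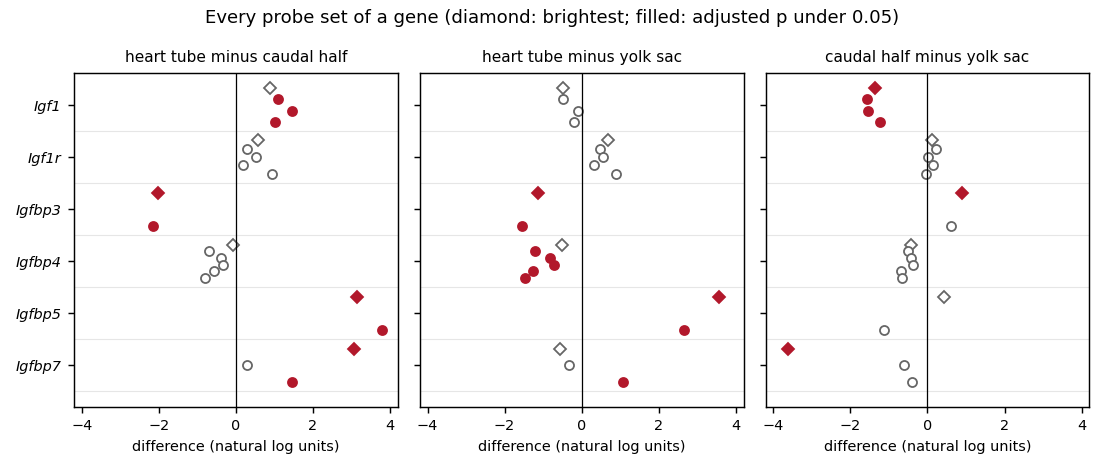
Tissue differences of every probe set of the 6 genes with more than 1, in natural log units. Diamonds mark the brightest probe set of a gene and filled symbols an adjusted p under 0.05 over all named probe sets. The probe sets of Igf1 and Igfbp3 lie close together, whereas those of Igfbp7 spread from -3.62 to -0.39 between caudal tissue and yolk sac.

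Igfbp3, the main carrier of IGFs in adult blood, was lowest in the heart tube. It read 9.57 and 9.54 in the caudal tissue, 8.77 and 8.57 in the yolk sac and 7.59 and 7.47 in heart tube cells, and no tissues overlapped. The heart tube was lower than the caudal tissue by a difference of -2.02 ± 0.17 (limma adjusted p = 0.00164) and lower than the yolk sac by one of -1.14 ± 0.17 (adjusted p = 0.00817). The caudal tissue exceeded the yolk sac by 0.89 ± 0.17 (adjusted p = 0.0252). It was the only one of the 9 genes called in all 3 comparisons. The call between heart tube and caudal tissue held in all 14 settings. That against the yolk sac was lost without the second heart tube array (adjusted p = 0.0592). The call between caudal tissue and yolk sac was lost in 7 settings, among them the omission of any single array, with adjusted p up to 0.109. The second probe set gave -2.16 and -1.56, both called, for the heart tube, and 0.60, not called, for the last comparison. Of the 12 endothelial markers, 4 were lower and 1 higher in the heart tube against the caudal tissue, and 6 were lower and 0 higher against the yolk sac. The 8 epithelial markers averaged 4.75 and 4.78 on the heart tube arrays, 6.80 and 6.60 on the caudal arrays and 7.68 and 7.59 on the yolk sac arrays, with 6 and 7 of them lower in the heart tube and 3 of them at background there. The part of these cells in the level of Igfbp3 was not tested.

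The sequences ahead of the start sites of Igfbp5, Igfbp7 and Igfbp3 are shown because these 3 were the binding protein genes called between tissues. A link of the sequences to the levels was not tested. RefSeq (GRCm38.p6) gives a start for each of the 9 genes, and the 250 bases before it are printed 5′ to 3′ on the gene's strand, with GC boxes (GGGCGG, either strand) in capitals. Igfbp5 lies at chr1:72874866-72875115, minus strand. Igfbp7 lies at chr5:77408046-77408295, minus strand. Igfbp3 lies at chr11:7213924-7214173, minus strand, before a start that is 1575 bases inside the outermost annotated end of the gene.
Igfbp5: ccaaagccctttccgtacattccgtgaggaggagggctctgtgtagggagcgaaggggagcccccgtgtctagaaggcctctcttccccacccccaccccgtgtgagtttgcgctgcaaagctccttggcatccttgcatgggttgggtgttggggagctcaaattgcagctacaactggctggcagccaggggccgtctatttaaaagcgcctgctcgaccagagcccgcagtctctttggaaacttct
Igfbp7: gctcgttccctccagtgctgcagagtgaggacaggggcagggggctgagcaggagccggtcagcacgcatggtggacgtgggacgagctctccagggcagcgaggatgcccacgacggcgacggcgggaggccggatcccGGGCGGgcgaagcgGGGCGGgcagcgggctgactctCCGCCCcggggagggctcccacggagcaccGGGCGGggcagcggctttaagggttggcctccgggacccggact
Igfbp3: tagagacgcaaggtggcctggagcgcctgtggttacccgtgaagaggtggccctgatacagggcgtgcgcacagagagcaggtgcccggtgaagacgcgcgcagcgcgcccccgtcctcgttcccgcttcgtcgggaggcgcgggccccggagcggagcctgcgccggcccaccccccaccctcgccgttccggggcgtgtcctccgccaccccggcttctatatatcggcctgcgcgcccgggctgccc

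The 3 windows differ in base composition. Igfbp7 has 74.0% G and C, 26 CpG and 4 GC boxes. Igfbp3 has 73.2%, 32 CpG and 0 GC boxes, and Igfbp5 has 58.8%, 10 CpG and 0 GC boxes. Over all 32851 windows of that length the median was 52.4% and 6 CpG, and 32.7% held a GC box. The letters TATAAA, on either strand, were in none of the 3, against 12.4% of all windows. Of the 9 genes, Igfbp4 has them 28 bases before its start and Igfbp6 148 bases before. E-boxes (CANNTG, the same on either strand) were found once each ahead of Igfbp5 and Igfbp3 and not ahead of Igfbp7, against 66.2% of all windows with at least 1. These are matches of letters and not sites of binding.

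Igfbp4, a binding protein mainly known to restrain IGF action and a substrate of pappalysin-1, was close to level on its brightest probe set. It read 12.29 and 12.08 in heart tube cells, 12.40 and 12.10 in caudal cells and 12.73 and 12.65 in the yolk sac. Both yolk sac arrays were above the other 4, which overlapped. The heart tube differed from the yolk sac by -0.50 ± 0.19 (95% interval -0.95 to -0.06, limma adjusted p = 0.147). Its differences from the caudal tissue (-0.06, interval -0.51 to 0.38) and of the caudal tissue from the yolk sac (-0.44, -0.88 to 0.01) also missed the threshold. The other 5 probe sets showed larger differences. All 5 were called lower in heart tube than in yolk sac, by -1.46 to -0.71, and the mean of the 6 was called too (-0.99, adjusted p = 0.00552). This call therefore depends on the rule of the brightest probe set. It depends on the variance model too, since the brightest probe set was called with a variance trend (limma adjusted p = 0.0147). None of the 6 was called in the other comparisons in the main fit. With the trend, caudal tissue minus yolk sac was called on the brightest probe set (limma adjusted p = 0.0295).

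Igfbp1, Igfbp2 and Igfbp6 passed no test. Igfbp1, a binding protein of liver and other secretory tissues, read 4.89 and 5.03 in the caudal tissue, 5.80 and 3.94 in the yolk sac and 2.93 and 3.78 in the heart tube. Both heart tube arrays and 1 yolk sac array were among the bacterial probe sets, and the yolk sac replicates were 1.86 apart, where the median gene was 0.23 apart. The differences of -1.60 (heart tube minus caudal tissue, interval -3.02 to -0.18) and -1.51 (minus yolk sac, -2.93 to -0.09) missed the threshold (limma adjusted p = 0.208 and 0.168). Without the second yolk sac array the latter became -2.44 and was called (adjusted p = 0.0211).

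Igfbp2, a binding protein widely made in embryos, read 6.74 and 6.62 in heart tube cells, 7.10 and 7.03 in caudal cells and 6.99 and 7.24 in the yolk sac. The heart tube was lowest, and its difference from the yolk sac was -0.43 (interval -0.85 to -0.01, limma adjusted p = 0.18). Igfbp6, which prefers IGF2 to IGF1, read between 3.77 and 4.50 on the 6 arrays. These values straddle the top of the bacterial probe sets at 4.03. Its difference farthest from 0 was -0.30 (interval -0.87 to 0.26, adjusted p = 0.511), for caudal tissue minus yolk sac.

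Pairs of these genes are neighbours in the genome, on opposite strands and with no other gene starting between them in the RefSeq table. Igfbp2 and Igfbp5 lie side by side on chromosome 1. Between heart tube and caudal tissue Igfbp5 differed by 3.13 and Igfbp2 by -0.39. Igfbp1 and Igfbp3 lie side by side on chromosome 11. Their differences between heart tube and caudal tissue were -1.60 and -2.02, of which only that of Igfbp3 passed the test.

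The wider pathway was described with a list of 56 other genes, from ligands to the PI3K, TOR and MAPK arms, of which 47 had a probe set of their own. Between heart tube and caudal tissue 3 of 47 were higher and 1 lower, 8.51% of the list beside 5.51% of all genes. Between heart tube and yolk sac 5 were higher and 2 lower, 14.9% beside 11.8%. Between caudal tissue and yolk sac 1 was higher and 1 lower, 4.26% beside 9.08%. The median difference of the list was -0.08, 0.15 and 0.14, beside -0.08, -0.06 and 0.02 over all genes. Of the 11 measured genes of the TOR and FoxO arm, and of the 3 measured of the 8 listed for the MAPK arm, limma called 0 at an adjusted p under 0.05 in each comparison. At an unadjusted p under 0.05 they had 2, 1 and 0 genes between them in the 3 comparisons. With so few genes and the shares of all genes just given, nothing is read from these zeros.

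Pappa, which encodes pappalysin-1, the protease that cuts IGFBP4 and IGFBP5, was higher in the heart tube. It read 7.34 and 7.23 there, 2.77 and 3.76 in the caudal tissue and 3.18 and 3.52 in the yolk sac. The heart tube arrays were the only ones above the bacterial probe sets. The differences were 4.02 ± 0.33 (limma adjusted p = 0.00161) and 3.94 ± 0.33 (adjusted p = 0.000982), and they rest on a low side near background. All 3 probe sets of Pappa were called in both comparisons, by 3.16 to 4.31. Stc2, a stanniocalcin that inhibits this protease, was highest in the caudal tissue at 7.57 and 7.46. It read 5.56 and 5.38 in heart tube and 5.23 and 5.26 in yolk sac. The heart tube lay below the caudal tissue by a difference of -2.05 ± 0.17 (adjusted p = 0.00155), and the caudal tissue above the yolk sac by 2.27 ± 0.17 (adjusted p = 0.00107). Of its 2 dimmer probe sets, the brighter was not called (-0.86 and 0.73). The other was called in both (-1.45 and 1.10), with 5 of 6 arrays among the bacterial probe sets.

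Among receptors, Igf2r, which takes up IGF2 for breakdown, was higher in the heart tube at 11.74 and 11.77, against 9.62 and 9.87 in the caudal tissue and 9.90 and 9.97 in the yolk sac. The differences were 2.02 ± 0.17 (limma adjusted p = 0.00182) and 1.82 ± 0.17 (adjusted p = 0.00151), and the second probe set was called in both. Ghr, the growth hormone receptor that drives Igf1 in adult liver, was highest in the yolk sac at 9.76 and 9.64. It read 8.33 and 8.47 in heart tube and 7.80 and 7.94 in caudal tissue, the same order of tissues as Igf1. Heart tube and caudal tissue were not called apart for Ghr (0.53 ± 0.17, limma adjusted p = 0.15). Ghr was called below the yolk sac in heart tube cells (-1.30 ± 0.17, adjusted p = 0.00494) and in caudal tissue (-1.83 ± 0.17, adjusted p = 0.00229). Both of its other probe sets were called for caudal tissue minus yolk sac (-1.88 and -1.13), and 1 of them for heart tube minus yolk sac (-1.55, with -0.64 for the other). The visceral endoderm and mesenchymal markers given beside Igf1 also had their highest average in the yolk sac, and their part in the level of Ghr was not tested. Insr, the insulin receptor, read 8.23 and 8.06 in heart tube cells, 8.07 and 7.90 in caudal cells and 7.25 and 7.87 in the yolk sac, with no call on this brightest probe set. Of its other 2 probe sets, 1 was called higher in the heart tube against the yolk sac (1.02, adjusted p = 0.0473 over all named probe sets). Igf2, the other ligand of the receptor and named here after its values were seen, read 13.49 and 13.51, 13.07 and 13.05, and 13.36 and 13.30 in heart tube, caudal tissue and yolk sac, and passed no test on either of its 2 probe sets.

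**Figure D4:**
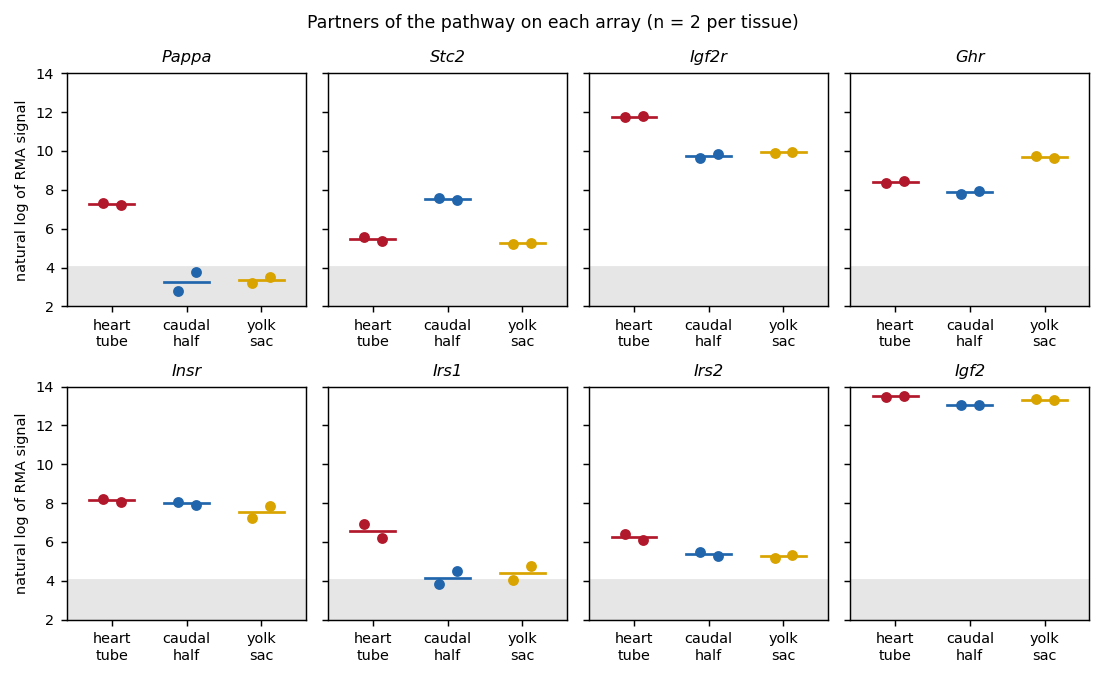
Level of 8 partners of the pathway on each array (dots) with the mean of each tissue (lines), as natural log of the deposited RMA signal. The grey band ends at 4.03. Pappa, Igf2r and Irs1 are highest in the heart tube, Stc2 in the caudal tissue and Ghr in the yolk sac.

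Of the adaptors that dock on the active receptor, Irs1 was called higher in the heart tube in both comparisons and Irs2 in 1. Irs1 read 6.92 and 6.20 there, 3.85 and 4.49 in the caudal tissue and 4.04 and 4.74 in the yolk sac. It differed by 2.39 ± 0.36 (limma adjusted p = 0.0168) and 2.17 ± 0.36 (adjusted p = 0.0132). Both differences rest on 1 probe set and on a low side near background, with the first caudal array among the bacterial probe sets. The first call was lost without the first heart tube or the first caudal array, and the second without the first heart tube or the first yolk sac array (adjusted p up to 0.0969). Irs2 read 6.42 and 6.09, 5.50 and 5.27, and 5.18 and 5.34 in that order. It was called against the yolk sac (0.99 ± 0.20, adjusted p = 0.0231), a call lost without any single heart tube or yolk sac array, and not against the caudal tissue (0.87, adjusted p = 0.0597). The regulatory PI3K subunits split. Against the yolk sac the heart tube was higher in Pik3r3 (0.97 ± 0.23, adjusted p = 0.0446) and lower in Pik3r1 (-0.78 ± 0.19, adjusted p = 0.0472), each close to the threshold and lost in 8 of 14 settings. The other 3 probe sets of Pik3r1 were all called lower in that comparison, by -1.38 to -1.07. Pik3r3 has 1 probe set. Pappa, Irs1 and Igf2r were higher in the heart tube in both comparisons, as were most of the cardiomyocyte markers given beside Igfbp5. Of the 10 mesenchymal markers, 6 were higher and 0 lower against the caudal tissue, and 3 higher and 4 lower against the yolk sac. Pdgfra, Pdgfrb and Twist1 were called higher in both. The part of these cells in the level of Pappa, Irs1 and Igf2r was not tested.

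Genes with the most similar pattern were found by the root mean square difference over the 6 arrays, after each gene was centred on its own mean. This was done for the 5 genes whose tissue means spanned at least 1 unit. For Igfbp5 (span 3.56) they were Mir99ahg (0.292), Erbb3, a receptor of neuregulins (0.294), and Slc1a3, a glutamate transporter (0.300). Erbb3 read 8.41 on average in the heart tube, 4.84 in the caudal tissue and 4.56 in the yolk sac. For Igfbp7 (span 3.62) they were Cavin2, a coat protein of caveolae (0.255), Akr1b8, an aldo-keto reductase (0.312), and Ctso, cathepsin O (0.368). Cavin2 averaged 10.30, 7.08 and 10.98 in the same order of tissues.

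For Igfbp3 (span 2.02) the nearest were Alpl, the tissue-nonspecific alkaline phosphatase (0.176), Tcl1 (0.183) and Upp1, uridine phosphorylase (0.206). Alpl averaged 4.36 in the heart tube, 6.63 in the caudal tissue and 5.69 in the yolk sac. For Igf1 (span 1.37) the distances were 0.0617 for Vps52, 0.0759 for Ptprb, the endothelial receptor phosphatase VE-PTP, and 0.0915 for Ankrd50. Distances are not scaled by the span, so they are not compared between the genes. Ptprb averaged 9.60, 8.84 and 10.05. For Igfbp1 (span 1.60), with its noisy yolk sac arrays, the nearest genes 4930486L24Rik, Ramp3 and Dll4 were 0.379 to 0.401 away. These lists are descriptions on 6 arrays. They were drawn from those of the 18193 genes whose highest tissue mean was above the bacterial probe sets.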

How the data were processed

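RNA of 6 sorted samples was hybridised to Affymetrix arrays, 1 per sample. Per the submitters' processing notes, which list affy and RMA, the authors summarised the deposited signal by that method. Versions, chip definition and log base were not stated in the sources used here. RMA removes background and gives all arrays 1 distribution, which hides shifts common to all genes. Here the natural log of the signal was taken. Of 45101 probe sets, 34945 carried 1 symbol and were no controls, 34741 of them matched by Entrez identifier in RefSeq (0 newer symbols). Each gene kept its brightest probe set, with no filter on dim ones. Tissue means were fitted across all 18193 genes with limma 3.58.1 in R 4.3.3 (lmFit, eBayes, two-sided, no covariate, 3 residual degrees of freedom), with Benjamini-Hochberg adjustment over all genes. The number of arrays limits precision (median SE 0.21). The fit was tested on simulated data. Alternatives number 14: the replicate number as a block, other choices of probe set, no dim genes, centring, a variance trend, 4 arrays, base 2, and leaving out each array. They are not 14 separate checks. Base 2 only rescales the values, and leaving out an array of the tissue not compared repeats the fit on the 4 arrays.

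The 9 genes and the lists were chosen with earlier results of these data known. Of the pathway list up to 5 called genes per direction and comparison were named, and Insr, Igf2r, Irs1, Irs2 and Pappa always. 9 pathway genes without a probe set of their own were not analysed here.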

Additional observations from a re-analysis of the deposited data

How the results depend on the processing

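Over all genes, leaving out 1 array gave 208 to 493 higher and 168 to 406 lower calls for heart tube minus caudal tissue (520 and 482 with all arrays), 387 to 764 and 549 to 1030 for heart tube minus yolk sac (936 and 1214), and 222 to 475 and 416 to 680 for caudal tissue minus yolk sac (767 and 885). Counted in probe sets, of which 34945 were tested in place of 18193 genes, 850 and 1632 were higher in the first 2 comparisons and 1346 lower in the last. The share called in either direction was lower than over genes, at 4.15%, 9.78% and 6.92% beside 5.51%, 11.8% and 9.08%. In the last comparison a variance trend gave 1229 higher and the 4 arrays alone 475.

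Of the 9 genes, the count lower in heart tube than in yolk sac was 0 to 2 without 1 array, and 2 with the mean of probe sets or a variance trend, where Igfbp4 joined Igfbp3. Between caudal tissue and yolk sac, leaving out 1 array gave 0 higher (Igfbp3 lost, also 0 with the 4 arrays alone) and 1 to 2 lower. Of the pathway list, a variance trend gave 5 higher for heart tube minus caudal tissue, 8 higher for heart tube minus yolk sac, and 2 higher and 3 lower for caudal tissue minus yolk sac, where the mean of probe sets gave 2 and 2. For heart tube minus yolk sac, leaving out 1 array gave 2 to 4 higher and 1 to 2 lower, and 1 lower remained in count with the replicate block, with all named probe sets or with the 4 arrays alone. Each array that was left out left its tissue with 1 array, assumed to vary like the others. The cause of these changes was not tested.

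No shift shared by same-numbered arrays was seen: their deviations correlated at -0.007 to 0.047. These values cannot tell whether the samples were paired when collected. With the replicate block 400 genes were higher and 376 lower in heart tube than in caudal tissue, and among the 9 genes only Igf1 lost a call (heart tube minus caudal tissue, adjusted p = 0.0594), and of the named pathway genes Pik3r1 and Pik3r3 did. No called difference changed sign under any alternative for the 9 genes or the named pathway genes. Weak signal limits Igfbp1, Igfbp6 and the low side of Pappa and of Irs1.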
